A study of Homo sapiens with 4 samples.

Results

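The globin genes were followed through the non-control probes whose gene name on the array was HBA1, HBA2, HBB, HBD, HBE1, HBG1, HBG2, HBZ or HBQ1. This gave 12 of the 41000 non-control probes, which name 8 of the 9 genes, among 30499 gene names on the array. HBG2 was named by no probe, but both HBG1 probes also list the HBG2 transcript, so that they read HBG1 and HBG2 together. One of the 2 HBA2 probes likewise lists HBA1. The cells were Meg-01, a human megakaryoblastic leukemia line, although the labels' text on RNA extraction names CMK, another megakaryoblastic line. GATA1 5-13 and GATA1 4-14 are clones with a GATA1 shRNA from a lentivirus, each grown from 1 soft agar colony after puromycin selection, and GATA1 Neg is a pool of cells with a control shRNA that matches no known human gene well. Every one of the 4 two-colour arrays held the RNA of 1 clone in one dye and that of GATA1 Neg in the other, and each clone had 2 arrays with the dyes swapped. All values are log2 ratios of knockdown clone over GATA1 Neg unless a level is named. The dye swap is technical, so that n = 2 clones throughout and the spread between clones is the only replicate error. GATA1 Neg was the reference everywhere, which leaves its own spread unmeasured.

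Hemoglobin is built from alpha-like chains, encoded on chromosome 16, and beta-like chains, encoded on chromosome 11, with a heme group in each chain. In each cluster the genes lie in the order in which they are used in development: HBZ and HBE1 in the embryo, HBG1 and HBG2 with the alpha genes in the fetus, and HBB with a small share of HBD after birth. GATA1 is an erythroid and megakaryocytic transcription factor that binds both clusters and their distal enhancers, and BCL11A and ZBTB7A are the main repressors of the fetal genes in adult cells.

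Promoter sequence from RefSeq (GRCh38.p14) was at hand for 1 of the 9 members, HBD, the delta chain of the minor adult hemoglobin. It is shown because its probes moved apart in the clones and because GATA1 binds the letters GATAA. These are the 250 bases before the start of transcription, chr11:5234484-5234733 on the minus strand, with matches to the motifs searched in capitals.

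HBD: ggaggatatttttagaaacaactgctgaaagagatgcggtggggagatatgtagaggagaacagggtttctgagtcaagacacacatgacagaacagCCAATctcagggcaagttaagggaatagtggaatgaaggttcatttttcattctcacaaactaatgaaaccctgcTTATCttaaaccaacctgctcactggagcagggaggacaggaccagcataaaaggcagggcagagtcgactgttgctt

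The motifs searched, on both strands, were GATAA for the GATA factors, the CCAAT box, CACCC for KLF1 and TGACCA for BCL11A, none of which overlaps another here. The window held 1 GATAA, on the opposite strand and hence printed as TTATC, which begins 78 bases before the start. It held 1 CCAAT, beginning 153 bases before the start, and neither CACCC nor TGACCA. Of 35116 promoter windows of the same length, 20.4% held the GATA motif, 32.0% the CCAAT box, 54.7% the KLF1 motif and 9.2% the BCL11A motif. A match is a description of letters and not a bound site.

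The globin probes lay on opposite sides of GATA1 Neg in the clones. By clone means, 10 of the 12 probes were higher in GATA1 5-13 and lower in GATA1 4-14, where 21.4% of all probes were. The exceptions were 1 HBE1 probe, lower in both clones, and HBQ1, higher in both. On every single array, 8 of the 12 were higher in GATA1 5-13 and lower in GATA1 4-14, where 8.03% of all probes were, and the opposite pattern, found for 7.86% of all probes, was found for no globin probe. The median log2 ratio of the 12 probes was 0.22 in GATA1 5-13 and -0.23 in GATA1 4-14, where the median of all probes was 0.00 in both. For bulk RNA, more cells of an erythroid kind and more globin RNA per cell cannot be told apart.

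**Figure D1:**
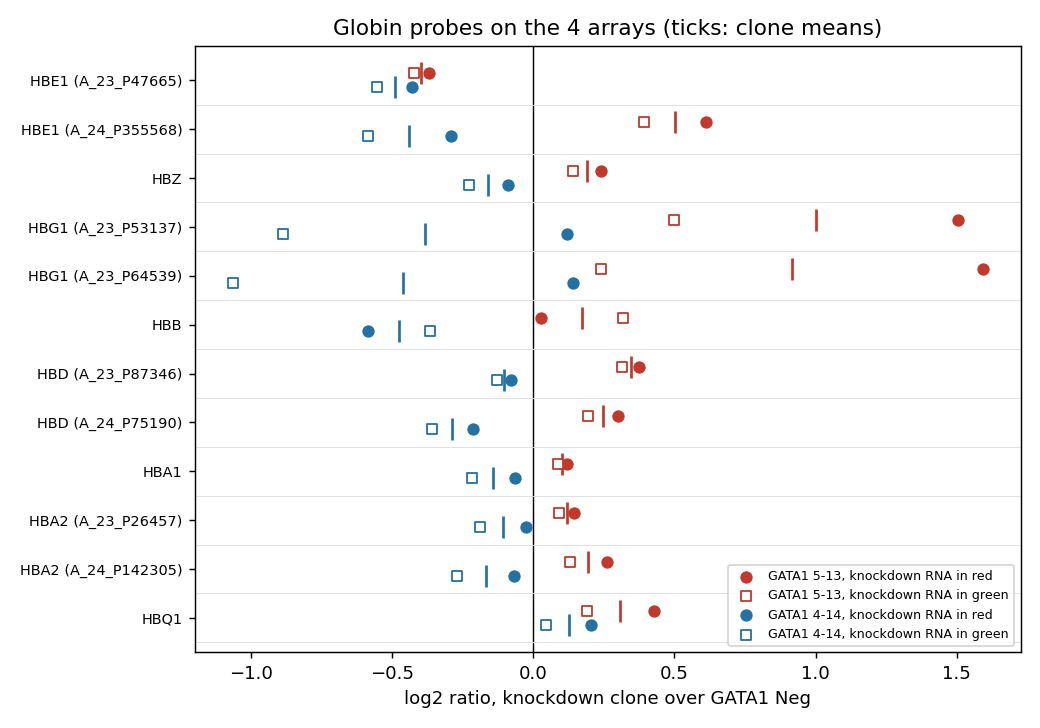
Log2 ratio of knockdown clone over GATA1 Neg (x axis) for the 12 globin probes (rows) on the 4 arrays; circles have the knockdown RNA in red, squares in green, and ticks are clone means. Of the 12 rows, 10 have the GATA1 5-13 tick right of 0 and the GATA1 4-14 tick left of it, and the HBG1 rows are the widest.

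The mean of both clones therefore stayed close to GATA1 Neg. No globin probe passed an adjusted p of 0.05 in limma with Benjamini-Hochberg adjustment over the 40974 probes tested, and no probe of any gene did (0%). At an unadjusted p of 0.05, 1 of the 12 passed, an HBE1 probe that was lower, where 7.42% of all probes passed and 4.04% passed as lower. The median of the 12 means was 0.01, with 0.00 for all probes.

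The difference between the clones was positive for all 12 probes in both dye orientations, where 36.9% of all probes had GATA1 5-13 above GATA1 4-14 in both. Its median was 0.41, with 0.00 for all probes. It reached 0.5 for 5 probes (2.59% of all probes) and 1 for 2 probes (0.478% of all probes). For 10 of the 12 probes it was larger than the gap between the arrays of either clone, a count for which no share of all probes was taken. With 1 sample of each clone this difference has no test between cultures. A limma fit of the 4 arrays with terms for clone and dye, which measures the spread of the arrays only, gave an adjusted p below 0.05 for 11 of the 12, where 15.2% of all probes passed with GATA1 5-13 above GATA1 4-14.

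GATA1, the target of the shRNA, was lower in both clones. It was at -0.21 and -0.34 on the arrays of GATA1 5-13 and at -0.43 and -0.58 on those of GATA1 4-14, averaging -0.39 ± 0.16 (SD over n = 2 clones; limma adjusted p = 0.605). The value was below 0 on all 4 arrays, in the clone with 11 of 12 globin probes above GATA1 Neg by mean as in the clone with 11 of 12 below it.

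HBE1 encodes the embryonic beta-like chain, epsilon, and its 2 probes differed. Probe A_24_P355568 (chromosome 11 from 5247438 to 5247619 of hg18, minus strand) was at 0.61 and 0.39 in GATA1 5-13 and at -0.29 and -0.59 in GATA1 4-14. The 4 GATA1 Neg levels of this probe lay between 11.30 and 11.51 on the log2 signal scale, both GATA1 5-13 levels above them at 11.91 and 11.88, and both GATA1 4-14 levels below them at 11.04 and 10.92. It was thus 1.42-fold GATA1 Neg in GATA1 5-13 and 73.8% of it in GATA1 4-14, and the clones differed by 0.94, or 1.92-fold. The mean over clones was 0.03 ± 0.67 (SD over n = 2 clones; limma adjusted p = 0.985).

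The other HBE1 probe, A_23_P47665 (chromosome 11 from 5247697 to 5247756), was near the limit of detection. GATA1 Neg RNA was well above background on all 4 arrays and knockdown RNA on none, so that HBE1 had only a bound by this probe, lower by at least 1.25-fold in the GATA1 5-13 clone and by at least 1.26-fold in the other. Its measured ratios were -0.37 and -0.42 in GATA1 5-13 and -0.43 and -0.56 in GATA1 4-14, with a mean of -0.44 ± 0.07 (SD over n = 2 clones; limma adjusted p = 0.548). Its unadjusted p from limma was 0.00474. This was the probe that passed the unadjusted threshold and the only one of the 12 lower on all 4 arrays, a pattern that 13.4% of all probes showed. Without background correction the dim probe was at -0.13 and -0.15 in the clones, and by the scanner program's own ratios at -1.32 and -1.69.

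HBZ encodes the embryonic alpha-like chain, zeta, and was also near background. Probe A_23_P3651 (chromosome 16 from 144352 to 144411) was at 0.24 and 0.14 in GATA1 5-13 and at -0.09 and -0.23 in GATA1 4-14. GATA1 Neg RNA passed background for HBZ on neither GATA1 5-13 array and the clone's own RNA on 1, so that no fold is given. Without background correction HBZ was at 0.05 in GATA1 5-13 and -0.06 in GATA1 4-14. The log2 signal of HBZ in GATA1 Neg ranged from 6.60 to 7.49 and overlapped both clones.

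HBG1 and HBG2, the fetal gamma genes, showed the widest separation of the clones. Probe A_23_P53137 (chromosome 11 from 5226110 to 5226169, minus strand, printed in 10 spots on each array) was at 1.504 and 0.50 in GATA1 5-13 and at 0.12 and -0.89 in GATA1 4-14. Probe A_23_P64539 (5226100 to 5226158, a single spot) was at 1.59 and 0.24 in GATA1 5-13 and at 0.14 and -1.07 in GATA1 4-14. Averaged over the dyes, gamma globin was 2.00-fold and 1.89-fold GATA1 Neg in GATA1 5-13 by these probes, and 76.7% and 72.6% of it in GATA1 4-14. The clones differed by 1.39 (2.61-fold) and 1.38 (2.60-fold). The mean over clones was 0.31 ± 0.98 for the first probe (SD over n = 2 clones; limma adjusted p = 0.878) and 0.23 ± 0.97 for the other (adjusted p = 0.914).

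The separation of the clones in HBG1 was similar in either dye orientation, while the position of each clone against GATA1 Neg was not. For the 10-spot probe the clones differed by 1.38 with the knockdown RNA in red and by 1.39 with it in green, and for the single-spot probe by 1.45 and 1.30. Within a clone, the array with the knockdown RNA in red lay 1.00 above its dye swap in GATA1 5-13 and 1.01 above it in GATA1 4-14. As a result HBG1 was above GATA1 Neg on both arrays of GATA1 5-13, but on 1 of the 2 arrays of GATA1 4-14. The spots of the probe varied little within an array, with an SD from 0.045 to 0.069. With the knockdown RNA in red, its log2 level was 17.69 in GATA1 5-13 and 17.35 in GATA1 4-14. GATA1 Neg was at 16.19 and 17.23 on those arrays, so most of the separation in red lay in GATA1 Neg. In green, the clones were at 17.71 and 16.68 and GATA1 Neg at 17.21 and 17.56. Within 1 dye, before normalization, GATA1 5-13 over GATA1 Neg was 0.40 in red and 1.455 in green. For GATA1 4-14 these values were -0.19 and -0.59.

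HBG1 was among the brightest probes of the array, at rank 1 to 93 by array of 40974 for the 10-spot probe. Red over green rose with brightness on every array. At a mean log2 signal near 17.1, the median red over green of the spots was from 1.95 to 2.48 by array and the loess curve from 1.66 to 1.755, so that a remainder was left in the brightest spots. The 100 brightest probes that are no globin had a median gap between the dye orientations of 0.995 in GATA1 5-13 and 0.99 in GATA1 4-14, much like HBG1. Their difference between the clones had a median of -0.23 and ran from -1.40 to 0.235, with 1 of the 100 at -1 or below, where HBG1 was at 1.39. Red over green before loess was 3.19 and 1.34 for HBG1 on the arrays of GATA1 5-13 and 1.82 and 2.60 on those of GATA1 4-14, on the log2 scale. The GATA1 Neg level of the 10-spot probe was 16.19 on the GATA1 5-13 array with the knockdown RNA in red, and from 17.21 to 17.56 on the other 3 arrays. For the single-spot probe it was 15.86 on that array and from 17.07 to 17.31 on the others. The same array was thus the lowest by both probes. Dixon's outlier test on the GATA1 Neg levels gave 0.742 for the 10-spot probe and 0.828 for the single-spot probe. Both lay below the critical value, the single-spot probe only just, so that the array did not pass as an outlier. The test had only 4 levels, which mix GATA1 Neg in green with GATA1 Neg in red. It therefore cannot decide whether the GATA1 5-13 array with the knockdown RNA in red is an outlier. Without this GATA1 5-13 array the clones differed by 0.88 and 0.70 by these probes. Without the GATA1 4-14 array with the knockdown RNA in green, HBG1 in that clone was at 0.12 and 0.14 and the clones differed by 0.88 and 0.77. Both steps set a clone in 1 dye orientation against the other clone in both, so that the dye gap enters the difference. In like orientations it was 1.38 in red and 1.39 in green for the 10-spot probe, and 1.45 and 1.30 for the single-spot probe.

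**Figure D2:**
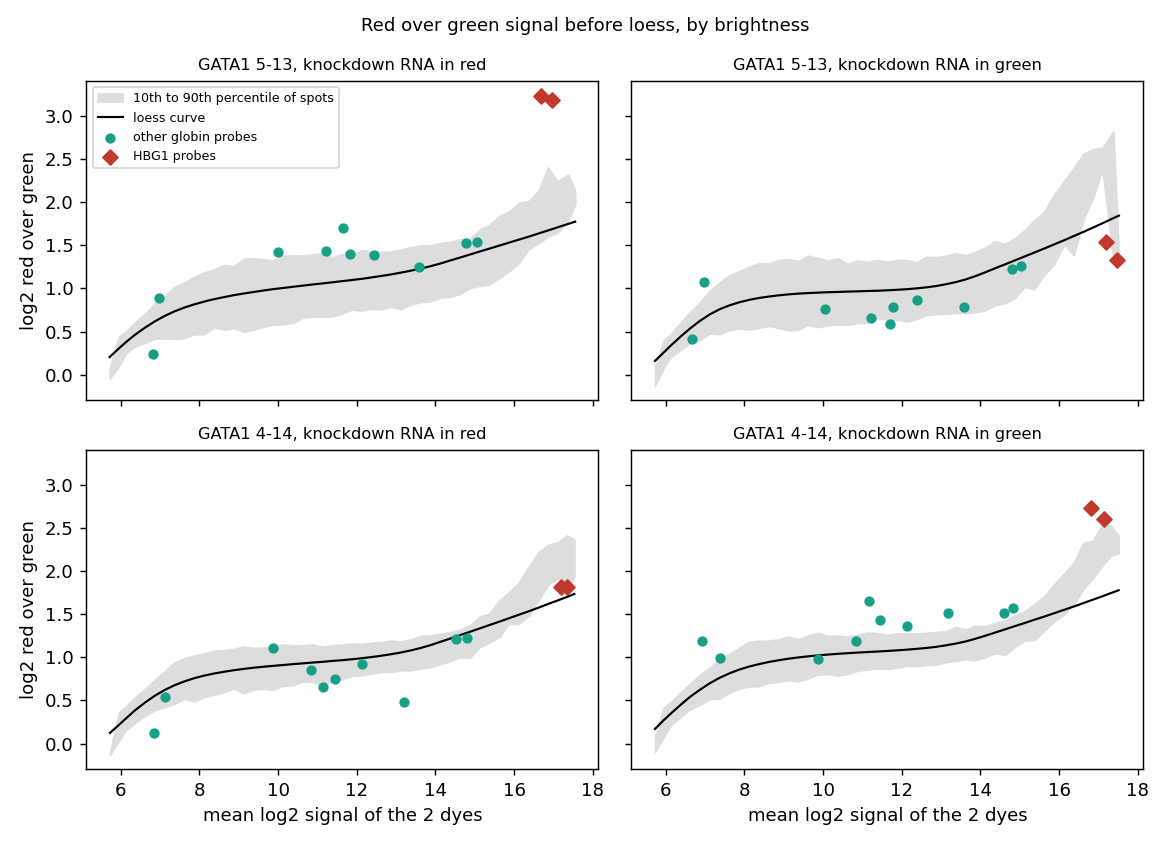
Log2 red over green before loess (y axis) against mean log2 signal (x axis) on each array; the band runs from the 10th to the 90th percentile of all spots, the line is the loess curve, and points are globin probes. The HBG1 points lie furthest above the curve on the first GATA1 5-13 array (3.19) and below it on the dye-swapped one (1.34).

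HBB encodes the adult beta chain. Probe A_23_P203558 (chromosome 11 from 5203294 to 5203353, minus strand, printed in 10 spots) was at 0.03 and 0.32 in GATA1 5-13 and at -0.58 and -0.37 in GATA1 4-14, and its spots had an SD from 0.024 to 0.044 within an array. The HBB level was below all 4 GATA1 Neg levels (13.39 to 13.54, log2 signal) on both GATA1 4-14 arrays (12.96 and 13.03) and above them on both GATA1 5-13 arrays (13.56 and 13.71). HBB was 112.7% of GATA1 Neg in GATA1 5-13 and 72.0% of it in GATA1 4-14, a difference of 0.65 between the clones, with a mean of -0.15 ± 0.46 (SD over n = 2 clones; limma adjusted p = 0.877). The dye gap of HBB ran against that of HBG1, with the knockdown RNA lower in red than in green by 0.29 and 0.22.

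HBD was measured by 2 probes that had the same signs on every array. Probe A_23_P87346 (chromosome 11 from 5210729 to 5210788) was at 0.38 and 0.32 in GATA1 5-13 and at -0.08 and -0.13 in GATA1 4-14. Probe A_24_P75190 (5211834 to 5211893) was at 0.30 and 0.19 in GATA1 5-13 and at -0.22 and -0.36 in GATA1 4-14. Both HBD probes had all GATA1 5-13 levels above and all GATA1 4-14 levels below those of GATA1 Neg, and the clones differed by 0.45 and 0.53. The adjusted p of their means was 0.862 and 0.984 from limma.

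HBA1 and HBA2 encode the same alpha chain and had the smallest differences between the clones among the adult genes. The HBA1 probe (A_23_P37856, chromosome 16 from 167382 to 167441) was at 0.12 and 0.09 in GATA1 5-13 and at -0.06 and -0.22 in GATA1 4-14. The HBA2 probe A_23_P26457 (163560 to 163619) was at 0.15 and 0.09 in GATA1 5-13 and at -0.03 and -0.19 in GATA1 4-14. Probe A_24_P142305 (162889 to 162948), which lists HBA1 beside HBA2, was at 0.26 and 0.13 in GATA1 5-13 and at -0.07 and -0.27 in GATA1 4-14. All 3 alpha probes thus had opposite signs in the clones, with differences of 0.24, 0.22 and 0.37. The HBA1 and HBA2 transcripts are nearly the same, so the split of signal between them is uncertain.

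HBQ1 encodes theta, an alpha-like chain with no settled role in hemoglobin. Its probe (A_23_P49254, chromosome 16 from 170574 to 170717) was at 0.43 and 0.19 in GATA1 5-13 and at 0.20 and 0.05 in GATA1 4-14. HBQ1 was the only globin probe higher on all 4 arrays, as 12.8% of all probes were, with a mean of 0.22 ± 0.13 (SD over n = 2 clones; limma adjusted p = 0.681). It too was higher in GATA1 5-13 than in GATA1 4-14, by 0.18.

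**Figure D3:**
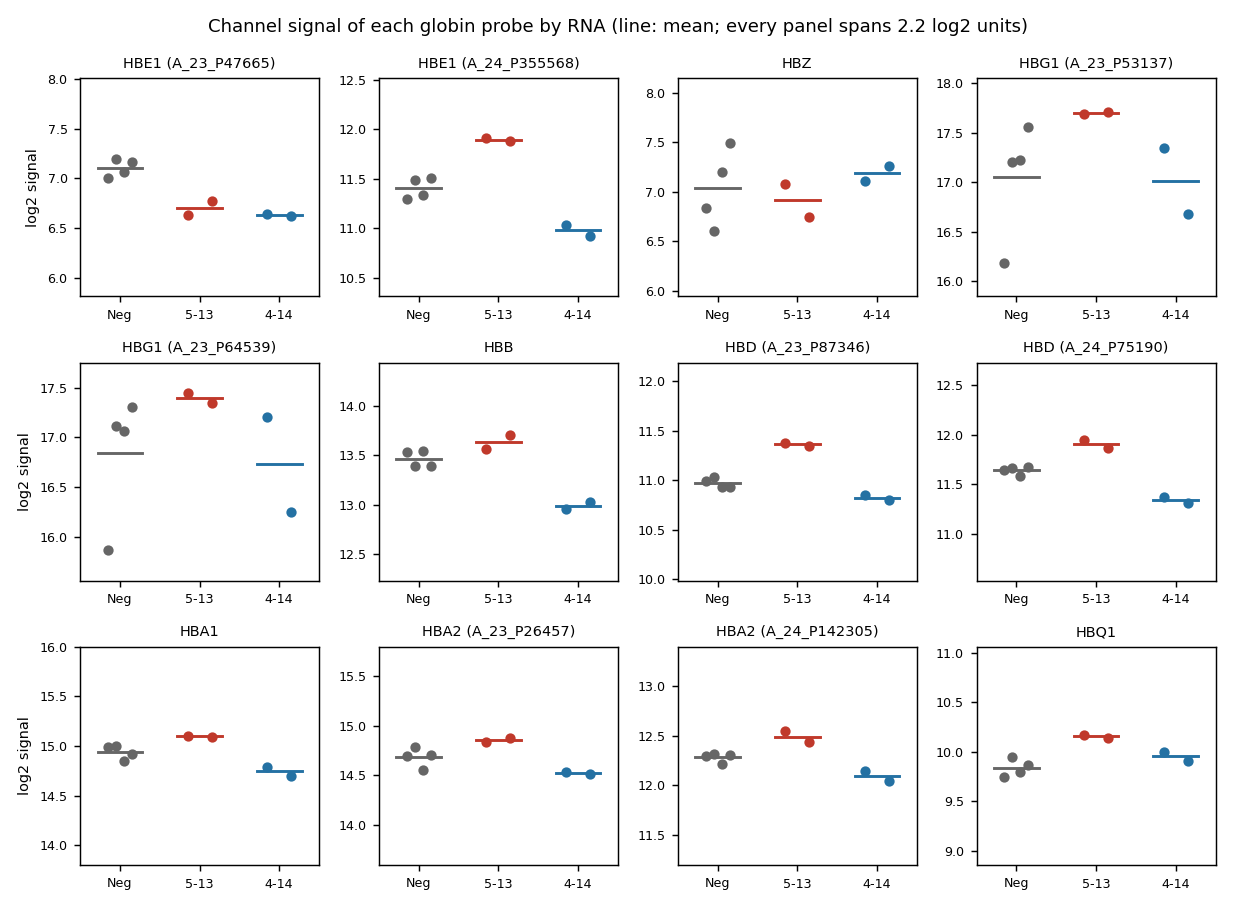
Log2 channel signal (y axis, equal span in every panel) of the 12 globin probes in GATA1 Neg (4 arrays), GATA1 5-13 and GATA1 4-14 (2 arrays each); points are arrays and lines are means. For HBB and both HBD probes GATA1 5-13 sits above and GATA1 4-14 below every GATA1 Neg point, while the HBG1 points of GATA1 Neg spread from 16.19 to 17.56 for the 10-spot probe.

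By class, the 2 fetal probes had a median clone difference of 1.38, the 6 adult probes of 0.41 (0.22 to 0.65) and the 3 embryonic probes of 0.35 (0.10 to 0.94). The embryonic median is that of HBZ, which was 0.11 without background correction and 0.88 by the deposited log ratios, so that the order of the embryonic and adult classes was not settled. All 6 adult probes were higher on both GATA1 5-13 arrays and lower on both GATA1 4-14 arrays. Within GATA1 5-13 the ratio of the 10-spot HBG1 probe lay above the HBB ratio by 1.48 on one array and 0.18 on the other. In GATA1 4-14 the same difference was 0.70 on one array and -0.52 on the other. This HBG1 probe thus exceeded HBB on both arrays of GATA1 5-13 but not on both arrays of GATA1 4-14. The single-spot HBG1 probe did not exceed HBB on both GATA1 5-13 arrays. With the knockdown RNA in green it was at 0.24 there, where HBB was at 0.32. Averaged over the dye orientations, the difference of the 10-spot HBG1 probe from HBB was 0.83 in GATA1 5-13 and 0.09 in GATA1 4-14. In both RNAs on all 4 arrays, 10 of the 12 globin probes were well above background, as 58.1% of all probes were. Among the probes so detected, the pattern of higher in GATA1 5-13 and lower in GATA1 4-14 on every array was shown by 7 of the 10 globin probes and by 9.27% of all.

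Other genes of the globin fold did not all follow. HBBP1, the beta-like pseudogene between HBG1 and HBD, was at 0.33 and 0.44 in GATA1 5-13 and at -0.33 and -0.22 in GATA1 4-14, the pattern of its neighbours, whose similar sequence can share its signal. HBM, the mu gene between HBZ and HBA2, was at -0.38 and -0.48 in GATA1 5-13 and at -0.25 and -0.33 in GATA1 4-14. HBM was lower on all 4 arrays, unlike the alpha genes on either side (-0.36 ± 0.10 over n = 2 clones, SD; limma adjusted p = 0.576).

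Probes around the clusters followed in part. Within 300 kb of the beta-like probes on chromosome 11 there were 13 other probes, among them olfactory receptor genes, of which 3 were well above background on any array. HBBP1 and UBQLNL showed the globin pattern there, with UBQLNL at 0.19 and -0.19 by clone, a pattern that 8.03% of all probes showed. Within 300 kb of the alpha-like probes on chromosome 16 there were 22, of which 3 showed it: SNRNP25 (0.47 and -0.05), RHBDF1 (0.15 and -0.11) and PGAP6 (0.12 and -0.11), named here after their values were seen. On chromosome 16, 2 of the 22 passed an unadjusted p of 0.05 in limma, where 7.42% of all probes passed. These were HBM and PDIA2, the latter at 0.32 and 0.42 by clone. No neighbour had one sign on all 4 arrays with a mean of 0.5 or more in size, and the medians were 0.02 and -0.03 on chromosome 11 and 0.07 and 0.01 on chromosome 16.

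Genes that supply the globin chains with heme and iron followed the globins in part. Of 24 such genes, 8 were higher on both GATA1 5-13 arrays and lower on both GATA1 4-14 arrays and 0 showed the opposite pattern, where 8.04% and 8.07% of 30484 genes did. ALAS2, the erythroid enzyme that starts heme synthesis, was at 0.53 and 0.84 in GATA1 5-13 and at -0.54 and -0.28 in GATA1 4-14. TFRC, the transferrin receptor that takes up iron, was at 0.56 and -0.32 by clone. Members with this pattern and smaller differences included FLVCR1, STEAP3, PPOX, ALAS1 and SLC11A2, and these and TFRC were named after their values were seen. AHSP, the chaperone of free alpha chains, was near background, with GATA1 Neg RNA passing on all 4 arrays and knockdown RNA on 1 of GATA1 5-13 and 0 of GATA1 4-14. Its measured ratios were -0.13 and -0.59 in GATA1 5-13, and in GATA1 4-14 it was at least 1.18-fold lower (limma adjusted p = 0.565 over both clones). In all, 6 of the 24 were lower on all 4 arrays and 4 higher, as were 13.4% and 13.2% of all genes, and 0 passed an adjusted p of 0.05.

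Erythroid markers split. Of 19, 5 showed the globin pattern and 0 its opposite, where 8.04% and 8.07% of all genes did. Among the 5 were GYPB and GYPC of the glycophorins and EPB42 and SPTB of the membrane skeleton, again named after their values were seen. A further 9 of the 19 were lower on all 4 arrays, where 13.4% of all genes were, and 2 were higher, where 13.2% were. By mean over the clones the Rh antigen genes had the lowest values of the list, with RHCE at -1.91 and -0.85 by clone and RHD at -1.31 and -0.53. RHCE and RHD are near-identical and can share signal. These had adjusted p-values of 0.61 and 0.627 from limma, so that they did not pass the test.

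**Figure D4:**
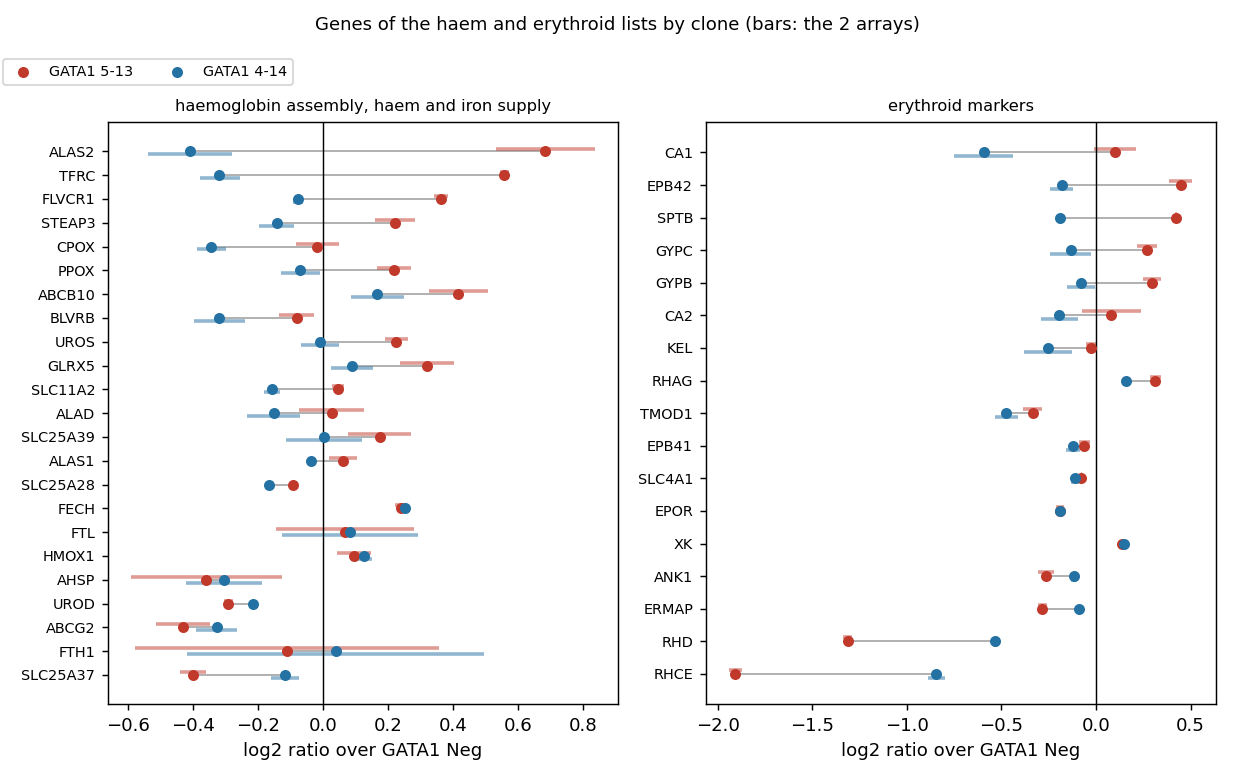
Log2 ratio over GATA1 Neg (x axis) of 40 genes of the heme and iron list (left) and of the erythroid markers (right), with points at clone means, bars over the 2 arrays of a clone and genes ordered by the difference between clones. ALAS2 heads the left panel at 0.68 and -0.41, and RHCE closes the right panel at -1.91 and -0.85.

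Among 40 regulators of the globin genes, more were lower than higher. On all 4 arrays 13 were lower and 4 higher, where 13.4% and 13.2% of all genes were, and 4 showed the globin pattern, where 8.04% did. In limma 11 of the 40 had a probe with an unadjusted p below 0.05, where 7.42% of all probes had, and 0 passed an adjusted p of 0.05. The 40 genes had 68 probes and a gene counts if any of them passes, so that its count is not directly comparable to the share of probes. BCL11A, a repressor of the gamma genes, was at 0.21 in GATA1 5-13 and 0.10 in GATA1 4-14, higher on all 4 arrays, and ZBTB7A, another, was at -0.23 and -0.13, lower on all 4. KLF1, an activator of HBB, was at 0.01 and -0.19, and MYB, which holds back erythroid maturation, at -0.28 and 0.00. NFIA was the one regulator with a mean of 0.5 or more in size and one sign on all arrays, at -0.84 and -0.38 (adjusted p = 0.62 from limma). Of the 40, 2 had the reverse of the globin pattern on every array, where 8.07% of all genes did. These were HDAC1 (-0.55 and 0.03 by clone) and KDM1A (-0.57 and 0.21), enzymes of repressor complexes at the gamma genes. Both were named after their values were seen, and HDAC1 was at 0.003 on 1 GATA1 4-14 array.

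In GATA1 Neg, all 19 erythroid markers had a probe well above background on all 4 arrays, as did 9 of the 15 megakaryocyte markers on the array. The 19 genes had 32 probes and the 15 had 23, and a gene counts if any of its probes passes. No share of all genes was taken for these counts, so that the lists are not directly comparable. PF4, VWF, GP5, SELP and F13A1, which are megakaryocyte markers, had no probe well above background on any array in GATA1 Neg RNA. Of the 15, 4 were lower on all 4 arrays, 1 was higher and 1 showed the globin pattern, where 13.4%, 13.2% and 8.04% of all genes did. The reverse of that pattern was shown by 3 (ITGB3, SELP and F13A1), where 8.07% of all genes did. Knockdown RNA of SELP was above background on no array, and that of F13A1 on no GATA1 5-13 array, so that these signs lie near background. PF4, one of the 4 lower, was below background in both RNAs on all 4 arrays. ITGA2B, the integrin that defines the megakaryocytic lineage, was among those lower, at -0.40 and -0.18 by clone. Of 10 markers of other blood cells, 3 had a probe well above background in GATA1 Neg on all 4 arrays. The part of a changed cell mixture in the globin values was not tested.

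The probes closest to the 10-spot HBG1 probe in their 4 log2 ratios, among those well above background throughout, were FAM50B, PLEC, HIST2H2AA4, HSPE1 and LDHA, at Euclidean distances from 0.77 to 0.83. FAM50B was at 0.98 and -0.45 by clone and PLEC at 0.95 and -0.08, where HBG1 was at 1.00 and -0.38. HIST2H2AA4 was at 0.94 and -0.26, HSPE1 at 0.63 and 0.02 and LDHA at 0.51 and -0.08. LDHA was at 1.015 and 0.01 on the GATA1 5-13 arrays and at 0.31 and -0.47 on those of GATA1 4-14. Its closeness to HBG1 thus lies in part in the gap between dye orientations.

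**Figure D5:**
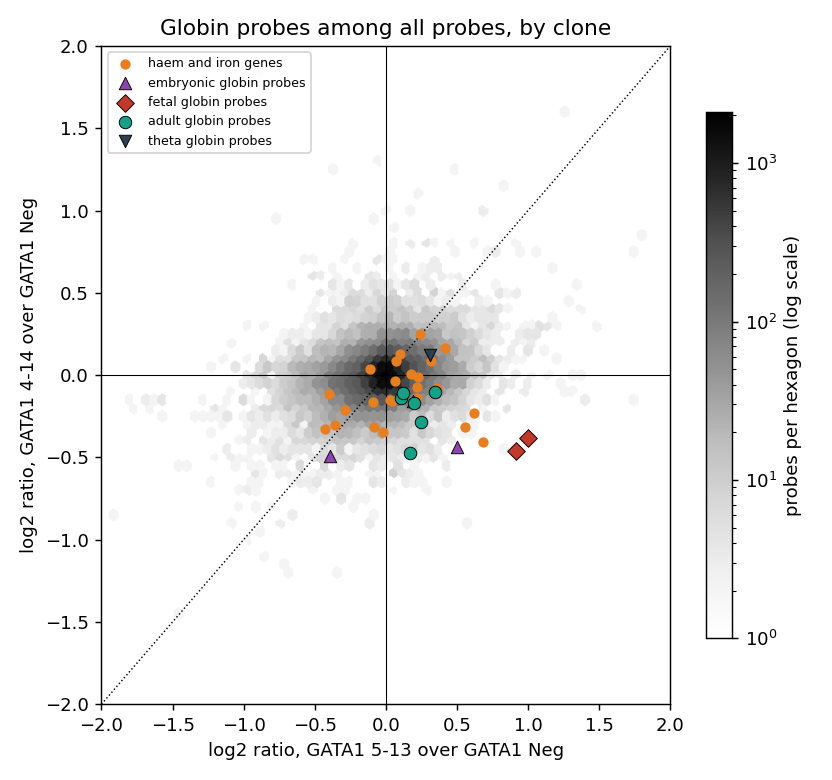
Log2 ratio over GATA1 Neg in GATA1 4-14 (y axis) against GATA1 5-13 (x axis), with all probes as shaded hexagons on a log scale of counts, globin probes by class and heme and iron genes as points; the dotted line marks equal values. Of the 12 globin probes, 10 lie at the lower right, with the fetal probes furthest from the dotted line at 1.00 and -0.38 and at 0.92 and -0.46.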

How the data were processed

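RNA of each Meg-01 clone was compared with GATA1 Neg RNA on 4 two-colour Agilent arrays (45015 spots). The deposited files hold, per the file headers, the intensity of each spot and its local background from Feature Extraction 9.5.3.1, not normalized, with probe positions on hg18. The deposited log10 ratio (the authors' table holds the same values, turned to knockdown over control) was background-subtracted and dye-normalized by that program. The deposited p-value of each spot comes from its error model and gave no result here. The average log ratios of the methods came from Rosetta Resolver, for which an error-weighted mean stood in as an alternative. Direction was taken from the dyes in the labels.

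Intensities were corrected with normexp (offset 50) and loess within each array in limma 3.58.1 (R 4.3.3). Control and outlier spots (135 to 152 an array) were left out, signs were turned so that ratios are knockdown over GATA1 Neg, spots of a probe were averaged, and channel levels came from Aquantile. The 2 arrays of a clone were averaged, and limma tested the mean of 2 clones against 0 for 40974 probes, two-sided, with Benjamini-Hochberg adjustment. P-values thus measure the spread between 2 clones, and the number of arrays limits the precision. The share of spots well above background ran from 61.6% to 66.4% by channel, and 0 spots were saturated. Probes of a list gene were averaged. The fit was tested on simulated data.

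All globin probes were named, with GATA1, KLF1, BCL11A, MYB, ZBTB7A, AHSP, ALAS2, list genes and neighbours of one sign on all arrays with a mean of 0.5 or more in size, and the 5 probes nearest to the globin probe with the largest mean. Members and lists were chosen with earlier results of these data known. Current symbols were matched through RefSeq for 17054 of 18027 accessions. Probe sequences were not used here, and 3 list genes are counted but not reported by name. Alternatives were no background correction, the deposited log ratios, median centring, an intensity trend, the outlier spots put back, dim probes removed, the 4 arrays as 4 values, an error-weighted mean and leaving out arrays or clones. The count of globin probes on opposite sides of GATA1 Neg was recomputed under these after the data were seen.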

Additional observations from a re-analysis of the deposited data

Results flagged for a closer look

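For 8 globin probes every array of GATA1 5-13 was above and every array of GATA1 4-14 below GATA1 Neg. The difference between the clones, on the log2 scale, was 0.94 for HBE1 (A_24_P355568), 0.65 for HBB, 0.53 for HBD (A_24_P75190) and 0.45 for HBD (A_23_P87346). It was 0.37 for HBA2 (A_24_P142305), 0.35 for HBZ, 0.24 for HBA1 and 0.22 for HBA2 (A_23_P26457). With 1 sample of each clone, the difference between cultures was not tested. HBZ was near background.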

How the results depend on the processing

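The clone differences of the globin probes kept their sign under every alternative that gave one, but not their size: HBZ (0.35) went to 0.11 without background correction and to 0.88 and 0.895 by the deposited log ratios and with error weights, the dim HBE1 probe (0.10) to 0.02, 0.37 and 0.26, and HBG1 ranged from 0.70 to 2.05 (A_23_P64539) and from 0.88 to 1.89 (A_23_P53137) with 1 array left out. With 1 array left out its clone is read in 1 dye orientation only, so that the HBG1 range includes the dye gap. By clone means, 8 to 10 of the probes lay on opposite sides of GATA1 Neg (9 of 11 with dim probes filtered out). Single means lie near 0 and turned. HBZ went to -0.003 without background correction and -0.083 with error weights. HBA1 went to 0.005 with the deposited log ratios, the deposited table, error weights and median centring, which also turned HBD (A_24_P75190) to 0.004. Without GATA1 5-13 the means were those of GATA1 4-14, -0.11 and -0.17 for HBA2 (A_23_P26457 and A_24_P142305), -0.16 for HBZ, -0.38 and -0.46 for HBG1, -0.11 for HBD (A_23_P87346) and -0.44 for HBE1 (A_24_P355568), and 9 globin probes were lower on both arrays. Without GATA1 4-14 they were 0.17 for HBB, 0.10 for HBA1 and 0.25 for HBD (A_24_P75190), and 11 were higher on both arrays. For these counts of 9 and 11 no share of all probes was taken. With single arrays left out, the means that turned ranged from -0.034 to 0.046 for HBA2 (A_23_P26457), from -0.037 to 0.063 for A_24_P142305, from -0.018 to 0.05 for HBZ, from -0.057 to 0.02 for HBA1, from -0.112 to 0.566 for HBG1 (A_23_P64539), from -0.043 to 0.105 for HBE1 (A_24_P355568) and from -0.057 to 0.016 for HBD (A_24_P75190).

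Counts over all probes depended on what was taken as a replicate. The replicate numbers mark the dye orientation, and arrays of one number correlated across clones (0.387 and 0.409) above arrays of different numbers (0.171 to 0.216). With the 4 arrays as 4 values, 7486 probes passed an unadjusted p of 0.05 and 1240 an adjusted one in limma without a replicate block, and 7464 and 269 with it. In both, 2 globin probes passed unadjusted, and 1 passed adjusted without the block, the dim HBE1 probe (adjusted p = 0.0133). Error weights gave 6541 and 3416 probes, with 4 and 2 globin probes, HBE1 at -1.47 (adjusted p = 7.83e-07) and HBG1 (A_23_P53137) at 0.34 (adjusted p = 0.025), whose adjusted p ranged to 0.568 and 0.985 over the alternatives. The dim filter left 1967 probes past the unadjusted threshold and 1 past the adjusted, and the intensity trend 1. Median centring left 0 globin probes higher on all arrays. Leaving out 1 array gave 0 to 1 probes past the adjusted threshold, 1 to 2 globin probes past the unadjusted one and 1 to 3 higher on all arrays used, the highest of each without the GATA1 4-14 array with the knockdown RNA in green (the 1 probe also without the GATA1 5-13 array with it in red). The other causes were not tested.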
